A study of Homo sapiens with 4 samples.

Results

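The aminoacyl-tRNA synthetases and the scaffold proteins that hold some of them together were followed through 4 RNA libraries of KYSE-150 cells, which come from a squamous carcinoma of the esophagus and grow as an established line. The members were 39 genes given as a list of older symbols, and all 39 were among the 17064 rows of the deposited table. They were split into 20 cytosolic enzymes, 16 mitochondrial enzymes, whose symbols end in 2, and 3 scaffold proteins, AIMP1, AIMP2 and EEF1E1. A gene entered counts when its mean over the 4 libraries was at least 5 FPKM, a read count scaled by gene length and library size, as 7379 genes did. All 20 cytosolic enzymes, 14 of the 16 mitochondrial enzymes and the 3 scaffold genes passed, and LARS2 and AARS2 did not. As an exception, LARS2 and AARS2 are included where pairs, all 16 mitochondrial enzymes or all 39 genes are described.

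The 4 groups were polyribosome RNA and input RNA of cells stably carrying a short hairpin RNA against NSUN6, and polyribosome RNA and input RNA of control cells with normal NSUN6. Its product methylates cytosines of RNA at the 5 position. All cells were treated with cycloheximide, which halts elongating ribosomes, and the polyribosome fraction was the RNA collected by spinning the lysate through a sucrose cushion. There was 1 library per group, so there was no replicate check, no test and no p-value, and a called difference is one of at least 2-fold.

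Before the results, 2 features of the libraries have to be given. The deposited table ends in another line of names, which calls the knockdown columns K30 with a hairpin against Mettl1 and gives their 2 fractions in the other order. The header, which matches the sample labels, was followed, and these libraries are called knockdown-labelled. NSUN6 had 0.38 FPKM in knockdown-labelled and 10.1 FPKM in control polyribosome RNA. In input it had 3.83 FPKM in knockdown-labelled and 8.85 FPKM in control cells. METTL1, the gene of the other hairpin name, had 8.32 FPKM in knockdown-labelled and 14.3 FPKM in control polyribosome RNA, and 5.98 FPKM in knockdown-labelled and 13.0 FPKM in control input. In the input-labelled libraries the genes were lower by similar amounts, and in the polyribosome-labelled ones NSUN6 was lower by more. KRT5, which basal cells of squamous epithelium make, had 0.45 FPKM in knockdown-labelled and 906 FPKM in control input, and KRT19, of simple epithelium, at 1488 and 0.07 FPKM in the same order of libraries, so the pairs differ in more than NSUN6. Of the 6 basal squamous markers that passed, 2 were called lower in input, KRT5 and KRT14, and 2 higher, SOX2 at 39.5 FPKM in knockdown-labelled and 0.31 FPKM in control input and ITGB4 at 91.3 and 41.9 FPKM. The part of that difference in the synthetase values was not tested. The 6 fibroblast markers summed to between 0.86 and 2.99 FPKM in the 4 libraries and the 4 endothelial markers to between 0.22 and 0.78 FPKM. Of 5 immune markers, CD68 alone passed the filter, at 5.90 FPKM in knockdown-labelled and 71.2 FPKM in control input. Fewer cells of a type and less RNA per cell cannot be told apart in such bulk samples. The number of reads behind each value is unknown.

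Each synthetase joins 1 amino acid to its tRNA, and so fixes how codons are read. Cytosolic and mitochondrial protein synthesis mostly use enzymes from separate nuclear genes, while GARS and KARS each encode the enzyme of both compartments. EPRS fuses the enzymes for glutamate and proline. Several cytosolic enzymes (EPRS, IARS, LARS, MARS, QARS, RARS, KARS and DARS) join the 3 scaffold proteins in the multisynthetase complex, and the others work outside it. Many cytosolic synthetase genes are transcribed through ATF4, the transcription factor of the amino acid response.

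The messages differ widely in base composition, against which the results are set below. Shown here are the central 150 bases of the coding sequence for the cytosolic and mitochondrial threonine enzymes, TARS and TARS2, whose messages lie far apart in the results. They were read from GENCODE 29 transcripts (GRCh38) in the direction of the message. Capitals mark G or C at the third position of a codon. The TARS stretch lies on the plus strand at chr5:33457380-33459721, across exons 10 to 12, and the TARS2 stretch on the plus strand at chr1:150496891-150497661, exons 9 and 10.
TARS: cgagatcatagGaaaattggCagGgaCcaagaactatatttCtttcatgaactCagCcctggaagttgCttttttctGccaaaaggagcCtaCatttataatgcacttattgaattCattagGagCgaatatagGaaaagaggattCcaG
TARS2: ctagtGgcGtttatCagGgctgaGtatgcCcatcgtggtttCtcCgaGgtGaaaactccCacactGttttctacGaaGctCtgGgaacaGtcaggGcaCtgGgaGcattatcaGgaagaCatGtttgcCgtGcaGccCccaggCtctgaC
Of the 50 codons shown, 17 end in G or C in TARS and 30 in TARS2. Over whole transcripts the GC content was 44.6% in TARS and 54.6% in TARS2. It was 41.6% in FARSB and 60.3% in FARSA, the subunits of the cytosolic phenylalanine enzyme.

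In control cells, synthetase messages stood slightly higher on polyribosomes than in input. Translation efficiency is given here as log2 of polyribosome FPKM + 1 over input FPKM + 1, a scale that understates the changes of low genes. It was above 0 for 18 of the 20 cytosolic enzymes, 10 of the 14 mitochondrial enzymes and the 3 scaffold genes, against 4010 of all 7379 genes. The median was 0.26 for cytosolic enzymes, 0.15 for mitochondrial enzymes and 0.25 for the scaffold, and 0.03 for all genes. No member reached 2-fold in either direction, as 0.759% of all genes did downward and 0% upward.

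AIMP2, which holds much of the complex together, had the highest value among the members, 0.54, with 114 FPKM on control polyribosomes and 78.1 FPKM in control input. RARS, the arginine enzyme, followed at 0.53, with 120 FPKM on control polyribosomes and 82.3 FPKM in control input, and HARS, the histidine enzyme, at 0.47. At the other end stood MARS2, the mitochondrial methionine enzyme, at -0.39, with 2.79 FPKM on control polyribosomes and 3.98 FPKM in control input. IARS and EPRS, at -0.18 and -0.12, were the cytosolic enzymes below 0. The order within this narrow range has no replicate behind it.

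By median, cytosolic enzymes stood higher than mitochondrial ones in control cells, though the ranges overlapped. In control input the cytosolic enzymes ran from 22.0 FPKM for LARS, the leucine enzyme, to 239 FPKM for KARS, with a median of 64.1 FPKM. The mitochondrial enzymes ran from 1.84 FPKM for AARS2 to 35.9 FPKM for CARS2, with a median of 12.9 FPKM. Among the 13 amino acids with a gene for each compartment and matching symbols, the cytosolic message was the higher in 13 of 13 pairs in control input, with a median ratio of 5.28, and in 13 of 13 on control polyribosomes, with a median ratio of 5.66.

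**Figure D1:**
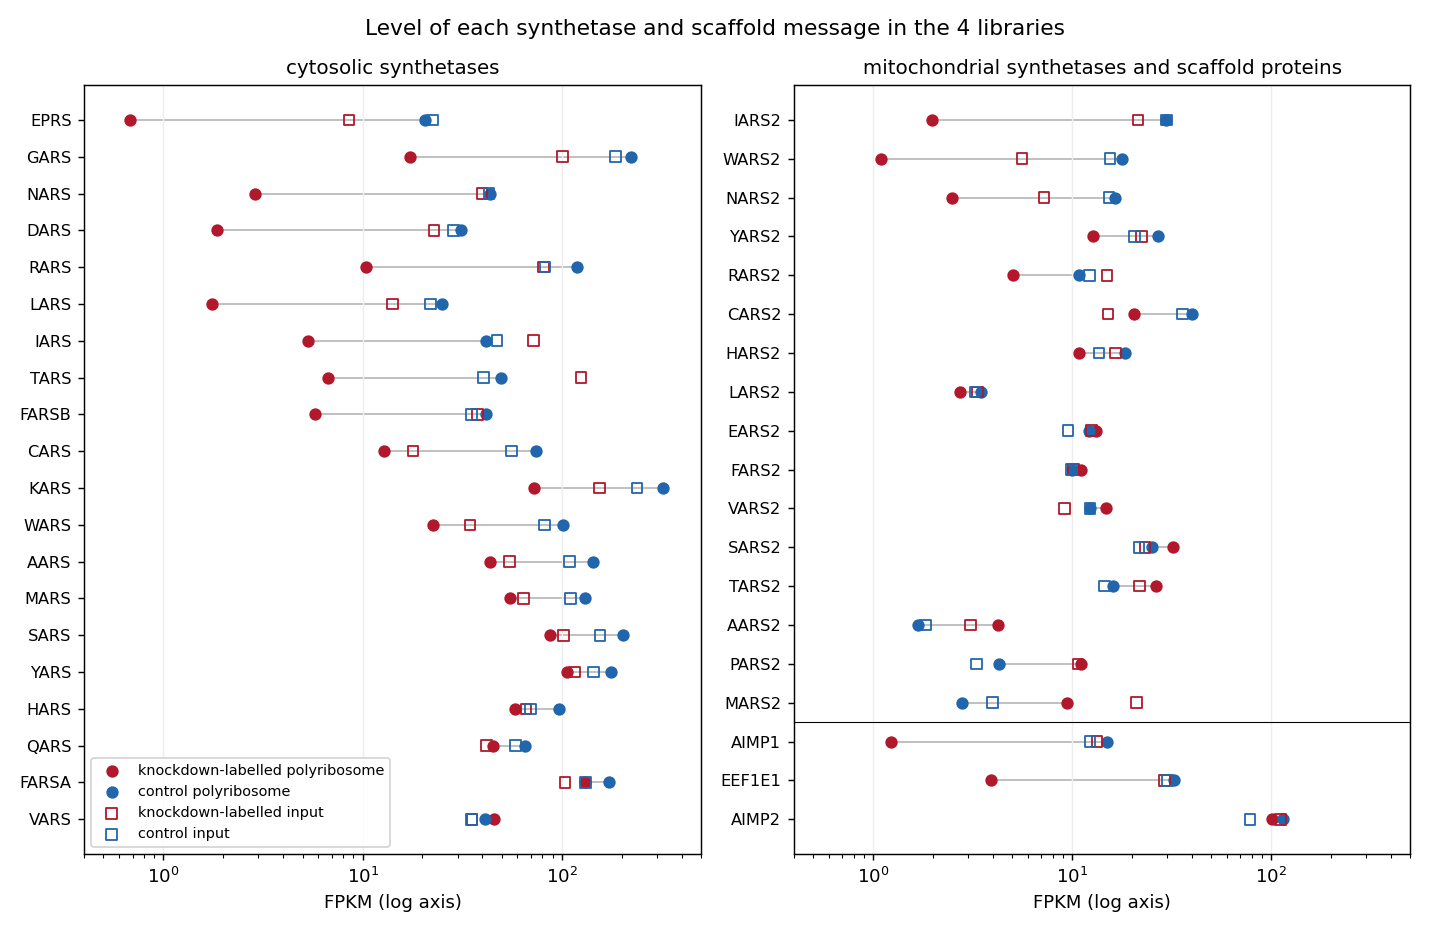
FPKM (log axis) of each of the 39 genes, cytosolic enzymes on the left and mitochondrial enzymes and scaffold genes on the right, ordered from the lowest to the highest log2 polyribosome difference within each class. Filled circles are polyribosome RNA and open squares input RNA, knockdown-labelled in red and control in blue, 1 library each, and the grey line joins the polyribosome values; for EPRS they were 0.68 FPKM in knockdown-labelled and 20.7 FPKM in control cells, while for VARS they were 45.6 and 41.2 FPKM.

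Polyribosome RNA of knockdown-labelled cells held far less of most cytosolic synthetase messages. Together the 20 cytosolic enzymes summed to 733 FPKM in knockdown-labelled and 2123 FPKM in control polyribosome RNA, and to 1294 FPKM in knockdown-labelled and 1700 FPKM in control input. The 16 mitochondrial enzymes summed to 180 FPKM in knockdown-labelled and 248 FPKM in control polyribosome RNA, and to 218 and 223 FPKM in the knockdown-labelled and control inputs. Of the cytosolic enzymes, 15 of 20 were called lower on knockdown-labelled than on control polyribosomes and 0 were called higher, where 32.9% of all genes were lower and 16.7% higher. Of the mitochondrial enzymes, 4 of 14 were lower, a share near that of all genes, and 2 were higher. The median log2 difference was -2.29 for cytosolic enzymes, -0.31 for mitochondrial enzymes and -0.28 for all genes.

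EPRS, whose product serves both glutamate and proline, was at 0.68 FPKM in knockdown-labelled and 20.7 FPKM in control polyribosome RNA, or 3.29% of control. In input it was at 8.53 FPKM in knockdown-labelled and 22.5 FPKM in control cells. Its message was low in both knockdown-labelled libraries, and lowest on polyribosomes.

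GARS, which charges glycine in both compartments, was at 17.3 FPKM in knockdown-labelled and 222 FPKM in control polyribosome RNA, a log2 difference of -3.61. In input it was at 101 FPKM in knockdown-labelled and 186 FPKM in control cells, a difference of -0.88. KARS, the other gene that serves both compartments, was at 72.5 FPKM in knockdown-labelled and 322 FPKM in control polyribosome RNA, a difference of -2.14.

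NARS, the asparagine enzyme, was at 2.89 FPKM in knockdown-labelled and 43.9 FPKM in control polyribosome RNA, while its input levels were close, at 39.8 FPKM in knockdown-labelled and 43.1 FPKM in control cells. RARS was at 10.4 FPKM in knockdown-labelled and 120 FPKM in control polyribosome RNA, against 81.3 and 82.3 FPKM in the knockdown-labelled and control inputs. For these genes the knockdown-labelled polyribosome library alone stood apart.

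DARS, the aspartate enzyme, was at 1.86 FPKM in knockdown-labelled and 31.1 FPKM in control polyribosome RNA, a log2 difference of -3.49. LARS, which also reports leucine to the mTORC1 pathway, was at 1.75 FPKM in knockdown-labelled and 25.1 FPKM in control polyribosome RNA, a difference of -3.25. In input DARS differed by -0.31 and LARS by -0.61.

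TARS and IARS went the other way in input. TARS was at 125 FPKM in knockdown-labelled and 40.6 FPKM in control input, but at 6.70 FPKM in knockdown-labelled and 49.3 FPKM in control polyribosome RNA. IARS, the isoleucine enzyme, was at 72.2 FPKM in knockdown-labelled and 47.4 FPKM in control input, but at 5.30 FPKM in knockdown-labelled and 41.8 FPKM in control polyribosome RNA. TARS was the sole cytosolic enzyme at least 2-fold higher in input.

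Both subunits of the cytosolic phenylalanine enzyme, which act as a tetramer, parted. FARSB was at 5.79 FPKM in knockdown-labelled and 41.6 FPKM in control polyribosome RNA, a log2 difference of -2.65. FARSA was at 132 FPKM in knockdown-labelled and 173 FPKM in control polyribosome RNA, a difference of -0.39. In input FARSB was at 37.7 FPKM in knockdown-labelled and 35.3 FPKM in control cells, and FARSA at 104 FPKM in knockdown-labelled and 131 FPKM in control cells. The ratio of the subunits' messages was thus close in both inputs and on control polyribosomes, and differed on knockdown-labelled polyribosomes.

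CARS, WARS, AARS, MARS and SARS were lower on knockdown-labelled polyribosomes by log2 differences between -2.45 and -1.20, and each was also below control in input. HARS, YARS, QARS, FARSA and VARS were not called, with differences between -0.74 and 0.14. VARS, the valine enzyme, which associates with elongation factors, was at 45.6 FPKM in knockdown-labelled and 41.2 FPKM in control polyribosome RNA.

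The mitochondrial enzymes covered a wider span. IARS2 was at 1.98 FPKM in knockdown-labelled and 29.6 FPKM in control polyribosome RNA, a log2 difference of -3.36, and WARS2, for tryptophan, at 1.10 FPKM in knockdown-labelled and 17.9 FPKM in control polyribosome RNA, a difference of -3.17. NARS2, at -2.33, and YARS2, for tyrosine, at -1.04, were the other called ones. CARS2, RARS2, HARS2, EARS2, FARS2, TARS2, SARS2 and VARS2 were not called, with differences between -0.96 and 0.68. FARS2, the mitochondrial phenylalanine enzyme, was at 11.1 FPKM in knockdown-labelled and 10.0 FPKM in control polyribosome RNA. MARS2 was at 9.43 FPKM in knockdown-labelled and 2.79 FPKM in control polyribosome RNA, and PARS2, for proline, at 11.1 FPKM in knockdown-labelled and 4.29 FPKM in control polyribosome RNA. Both were also higher in input, MARS2 at 21.1 FPKM in knockdown-labelled and 3.98 FPKM in control cells and PARS2 at 10.7 and 3.30 FPKM. These pass the filter through the knockdown-labelled libraries, since their mean over the control libraries was below 5 FPKM.

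Among the genes below the filter, AARS2 was at 4.24 FPKM in knockdown-labelled and 1.68 FPKM in control polyribosome RNA, and LARS2 at 2.72 FPKM in knockdown-labelled and 3.48 FPKM in control polyribosome RNA. In input AARS2 was at 3.09 FPKM in knockdown-labelled and 1.84 FPKM in control cells, and LARS2 at 3.35 and 3.25 FPKM.

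Of the scaffold, AIMP1, whose product is also secreted as a cytokine, was at 1.23 FPKM in knockdown-labelled and 14.9 FPKM in control polyribosome RNA. EEF1E1 was at 3.90 FPKM in knockdown-labelled and 32.5 FPKM in control polyribosome RNA. AIMP2 was at 100.3 FPKM in knockdown-labelled and 114 FPKM in control polyribosome RNA. In input AIMP1 was at 13.3 FPKM in knockdown-labelled and 12.3 FPKM in control cells, EEF1E1 at 29.1 and 30.2 FPKM, and AIMP2 at 111 and 78.1 FPKM, so AIMP1 and EEF1E1 stood apart on knockdown-labelled polyribosomes and AIMP2 did not.

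**Figure D2:**
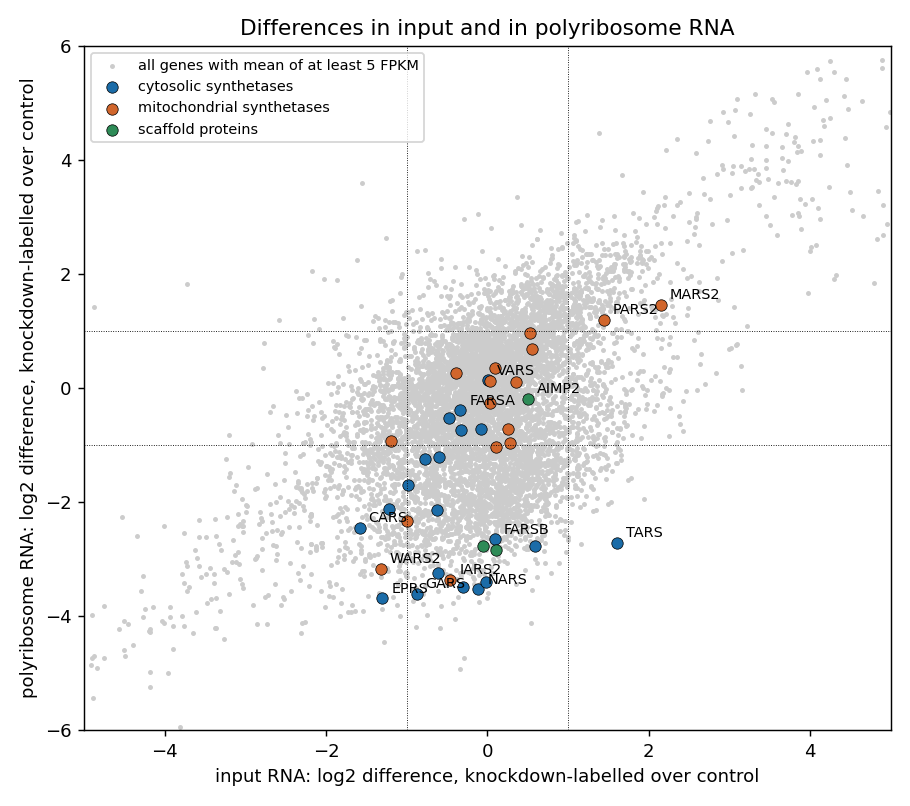
Each point is 1 gene, with its log2(FPKM + 1) difference in input RNA across and in polyribosome RNA upward, both knockdown-labelled over control; the 39 genes are coloured by class and grey points are the 7379 genes that passed the filter, of which those beyond the axes are not drawn. Dotted lines mark 2-fold; cytosolic enzymes run from -3.69 to 0.14 upward and from -1.58 to 1.60 across, with 15 of 20 below the lower line, while MARS2 and PARS2 lie at the upper right.

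In input RNA few synthetases were called. Of the cytosolic enzymes, 3 of 20 were at least 2-fold lower and 1 was higher, and of the mitochondrial enzymes 2 of 14 were lower and 2 higher, where 14.4% of all genes were lower and 13.2% higher. The shares that were lower are near that of all genes. The median was -0.40 for cytosolic enzymes, of which 16 of 20 were below 0, 0.10 for mitochondrial enzymes and 0.01 for all genes. The called lower ones were CARS, at 18.0 FPKM in knockdown-labelled and 55.9 FPKM in control input, EPRS, WARS, WARS2 and CARS2. WARS, the tryptophan enzyme, which interferon gamma induces, was at 34.7 FPKM in knockdown-labelled and 81.8 FPKM in control input.

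Synthetase genes known as ATF4 targets (AARS, CARS, EPRS, GARS, IARS, LARS, MARS, NARS, SARS, TARS, WARS and YARS) had a median input difference of -0.69, with 3 of 12 at least 2-fold lower and 1 higher. The other 8 cytosolic enzymes had a median of -0.19, from -0.62 for KARS to 0.09 for FARSB, with 0 called. Among 18 measured genes of amino acid supply under ATF4, 7 were at least 2-fold lower in input and 0 higher, with a median of -0.57. These input counts stand beside 14.4% lower and 13.2% higher among all genes. They were not made for these groups with the knockdown-labelled fractions exchanged. ATF4 itself was at 180 FPKM in knockdown-labelled and 432 FPKM in control input, and DDIT3, another factor of that response, at 7.31 FPKM in knockdown-labelled and 48.3 FPKM in control input. On polyribosomes ATF4 was at 380 FPKM in knockdown-labelled and 294 FPKM in control cells.

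An ATF4 site of amino acid response genes reads TGATGNAA, searched on both strands in the 250 bases before the RefSeq start (GRCh38.p14). It occurred in 1104 of 35116 promoters (3.14%) and in 3 of the 29 members that matched the table, AARS, IARS and YARS2. The share over all is counted by promoter and that of the members by gene, so their units differ. DARS, GARS, LARS, MARS, QARS, SARS, VARS, YARS, AARS2 and VARS2 were not matched. The matches are printed with up to 11 bases on each side, in the gene's direction, with the match in capitals; AARS lies at chr16:70289675-70289704, IARS at chr9:92293698-92293721 and YARS2 at chr12:32756076-32756105, all on the minus strand.
AARS: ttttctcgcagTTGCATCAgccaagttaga
IARS: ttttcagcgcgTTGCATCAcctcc
YARS2: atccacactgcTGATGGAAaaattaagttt
AARS and IARS carry the same letters, and their input differences were -0.98 and 0.60.

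Translation efficiency was lower in knockdown-labelled than in control cells for most synthetases. The difference was at least 2-fold downward for 10 of 20 cytosolic and 5 of 14 mitochondrial enzymes and for 2 of the 3 scaffold genes, and 0 members were at least 2-fold higher, where 30.1% of all genes were lower and 12% higher. The share of mitochondrial enzymes is near that of all genes. The median difference was -1.21 for cytosolic enzymes, -0.47 for mitochondrial enzymes, -2.72 for the scaffold genes and -0.12 for all genes.

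Within the knockdown-labelled cells, 10 cytosolic and 5 mitochondrial enzymes and 2 scaffold genes were at least 2-fold lower on polyribosomes than in input, where 28.8% of all genes were lower and 8.62% higher. By this measure the cytosolic enzymes lay in a low and a high set. TARS, IARS, NARS, DARS, RARS, FARSB, EPRS, GARS and LARS lay between -4.03 and -2.46, KARS stood between at -1.09, and the other 10 lay between -0.60 and 0.36. In control cells the same 20 enzymes lay between -0.18 and 0.53. In the authors' deposited table, where 5 was added to each FPKM, the efficiency ratio of TARS was 0.0899 in knockdown-labelled and 1.19 in control cells, and that of VARS was 1.25 and 1.15.

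**Figure D3:**
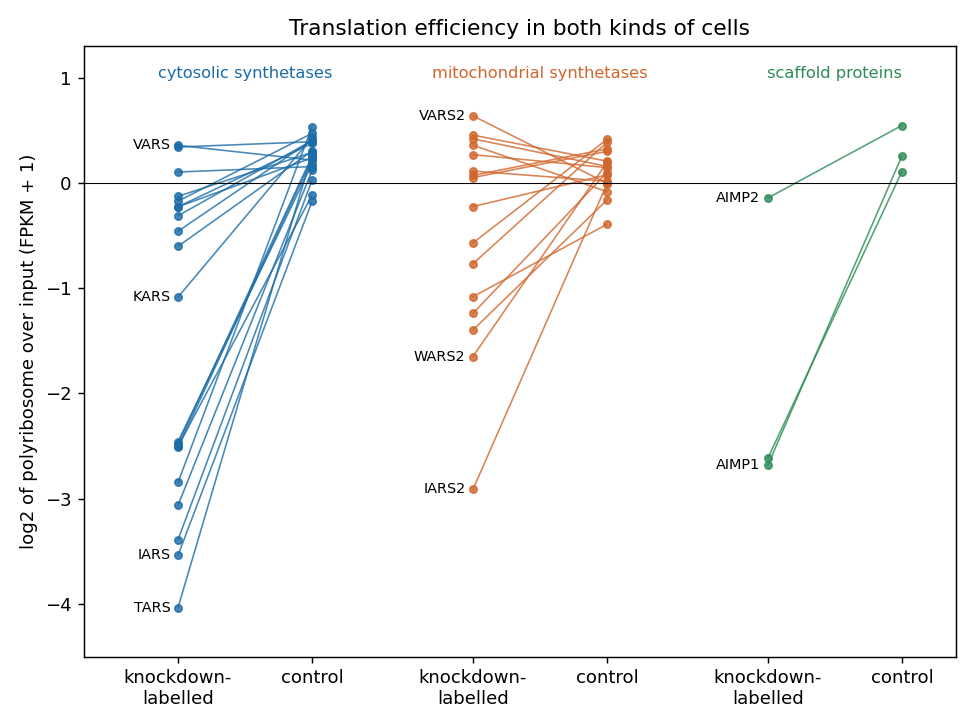
Log2 ratio of polyribosome to input FPKM (1 added to each) for each gene, knockdown-labelled cells on the left of each pair and control cells on the right, by class; a line joins the values of a gene, 1 library per fraction. Control values lie between -0.39 and 0.54, and knockdown-labelled values between -4.03, for TARS, and 0.64, for VARS2.

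Genes of the multisynthetase complex differed unevenly. Of its 8 enzymes and 3 scaffold genes, 8 of 11 were at least 2-fold lower in efficiency in knockdown-labelled cells, where 30.1% of all genes were, with a median of -2.64. They were DARS, EPRS, IARS, KARS, LARS, RARS, AIMP1 and EEF1E1, while MARS, QARS and AIMP2 were at -0.47, -0.05 and -0.69. Of the cytosolic enzymes outside the complex, 4 of 12 were lower, a share near that of all genes. They were TARS, NARS, FARSB and GARS, and the median over the 12 was -0.79. The median transcript GC content was 43.2% for the complex and 52.5% for the enzymes outside it. With the trend on GC content and length taken out, as described below, 5 of 11 and 4 of 12 were lower, where 17.9% of all genes were. The medians were then -0.98 and -0.91, so the gap between them was mostly gone with the scaffold genes counted. For the enzymes of the complex alone, 5 of 8 were then lower, with a median of -1.26. With the knockdown-labelled fractions exchanged, 0 of 11 and 0 of 12 were lower and 7 and 4 were higher. Among all genes 6.29% were then lower and 27.8% higher, so 4 of 12 is again near the share of all genes.

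The structural class of the enzyme, class I or class II by the fold of the catalytic domain, divided them less clearly. Of the cytosolic class II enzymes 6 of 10 were at least 2-fold lower in efficiency, and of the class I enzymes 3 of 9, leaving out EPRS, which holds both folds, and 3 of 9 is near the 30.1% of all genes. Their median GC contents were 47.6% and 53.1%. Of the mitochondrial enzymes it was 1 of 6 in class II and 4 of 8 in class I, with median GC contents of 54.3% and 49.1%. With the fractions exchanged, none of these enzymes was called lower, where 6.29% of all genes were. Called higher were then 5 of 10 cytosolic class II and 3 of 9 class I enzymes, where 27.8% of all genes were. Of the mitochondrial enzymes it was 1 of 6 in class II and 4 of 8 in class I.

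Enzymes for the same amino acid did not move as pairs. The cytosolic enzyme had the lower efficiency difference in 9 of 13 pairs, with a median gap of -0.85. Those 9 include the pairs of AARS2 and LARS2, which are below the filter. With the knockdown-labelled fractions exchanged it was lower in 4 of 13, with a median gap of 0.51. For threonine, TARS was at -4.31 and TARS2 at 0.12, TARS2 having 26.4 FPKM in knockdown-labelled and 16.1 FPKM in control polyribosome RNA. For leucine, LARS was at -2.64 and LARS2 at -0.30. The isoleucine enzymes were both low, IARS at -3.36 and IARS2 at -2.90, and the valine enzymes, VARS at 0.14 and VARS2 at 0.64, were both near or above 0. In 3 of 13 pairs (CARS2, TARS2 and LARS2, which is below the filter) the mitochondrial message was the higher on knockdown-labelled polyribosomes. This was so in 0 of 13 on control polyribosomes and in 0 of 13 in knockdown-labelled input. Under the exchange that count of 0 becomes the polyribosome value.

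HARS and HARS2, the cytosolic and mitochondrial histidine enzymes, are transcribed in opposite directions on chromosome 5. Their RefSeq starts (GRCh38.p14) have 84 bases between them, while the exons of all their protein-coding transcripts in GENCODE 29 overlap by 402 bases. HARS was at 58.5 FPKM in knockdown-labelled and 96.8 FPKM in control polyribosome RNA, and HARS2 at 10.8 and 18.5 FPKM, which gave both a log2 difference of -0.72. Without strand, reads in that overlap cannot be told apart. In input HARS was at 66.1 FPKM in knockdown-labelled and 69.6 FPKM in control cells, and HARS2 at 16.5 and 13.6 FPKM.

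The difference in efficiency followed the base composition of the messages. With GC content bands chosen after the values were seen, 7 of 7 members under 42% GC and 7 of 7 between 42% and 46% were at least 2-fold lower in efficiency in knockdown-labelled cells. Between 46% and 50% it was 3 of 4, namely KARS, GARS and YARS2 but not MARS2, and from 50% upward it was 0 of 8, 0 of 7 and 0 of 4 in bands that end at 54%, 58% and the highest value. Over all genes that passed, the share lower was 83.7%, 71.9%, 47.2%, 14.8%, 3.50% and 0.233% in the same 6 bands. The members thus followed a trend that all genes showed.

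Spearman's rho between transcript GC content and the efficiency difference was 0.90 over the 39 members, 0.87 over the 20 cytosolic enzymes, 0.92 over the 16 mitochondrial enzymes and 0.78 over 7338 genes. These points are genes of the same 4 libraries, not replicates. Over the 39 members rho was 0.77 for the polyribosome difference, 0.04 for the input difference and 0.15 for the efficiency in control cells, and transcript length had a rho of -0.10 with the efficiency difference. AIMP1 and EEF1E1 had the lowest GC contents, 36.3% and 36.9%, against 51.5% for AIMP2. TARS lay furthest below what its GC content went with, and MARS2 had 48.4% GC in its transcript and 57.7% in its coding sequence.

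**Figure D4:**
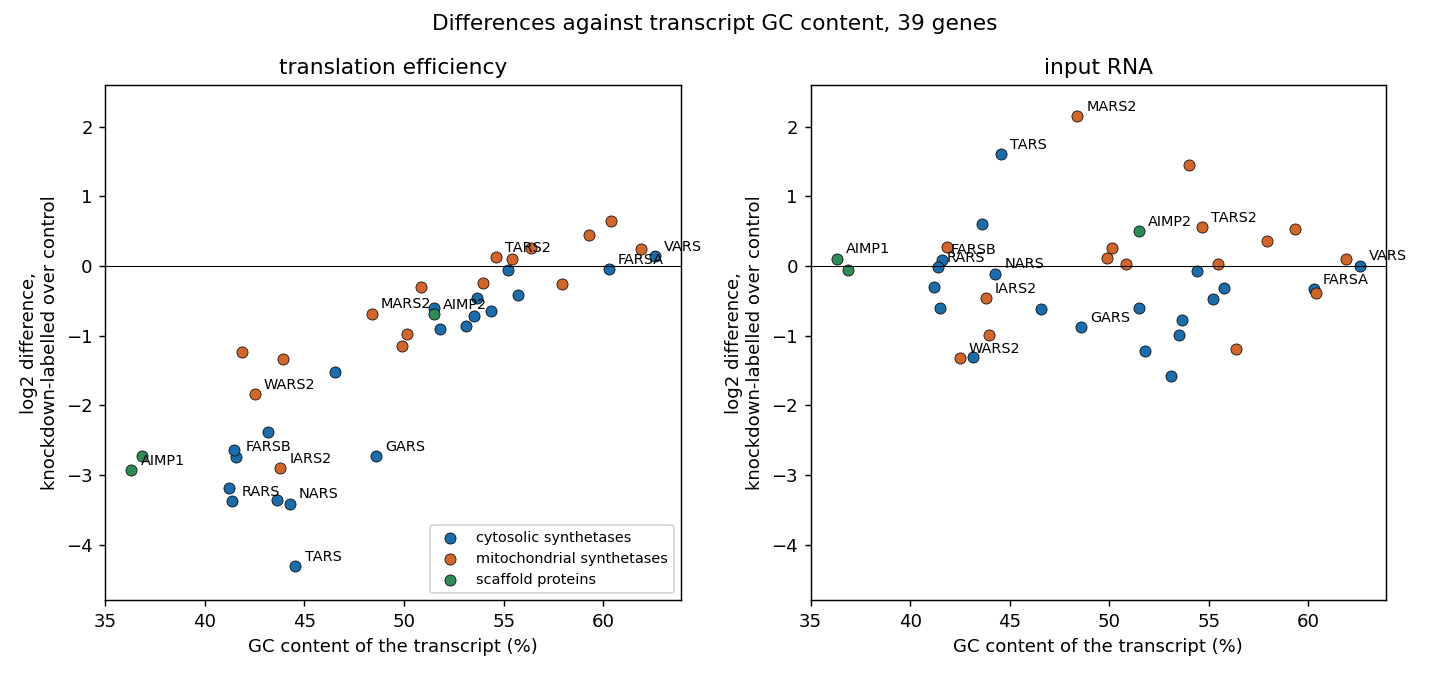
GC content of the transcript (GENCODE 29, in percent) across and the log2 difference between knockdown-labelled and control cells upward, for translation efficiency on the left and input RNA on the right, 39 genes coloured by class. On the left the points climb from between -3.38 and -1.24 near 42% GC to between -0.05 and 0.64 near 60%; on the right they show no slope, with a rho of 0.04.

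With a quadratic trend on GC content and length taken out across 7338 genes and the mean kept, the median efficiency difference was -0.94 for cytosolic enzymes, -0.39 for mitochondrial enzymes and -0.88 for scaffold genes, beside -0.40 for all genes. Of the cytosolic enzymes 9 of 20 were then at least 2-fold lower, of the mitochondrial enzymes 1 of 14 and of the scaffold genes 0 of 3, where 17.9% of all genes were lower. TARS was at -3.38, NARS at -2.42, GARS at -2.29, IARS at -2.28, RARS at -2.06 and DARS at -1.82, and IARS2 at -1.84. FARSB was at -1.39 and FARSA at -0.93, so that most of the gap between the subunits was no longer there. In polyribosome RNA, 17 of 20 cytosolic enzymes were at least 2-fold lower after this removal, where 26.2% of all genes were, with a median of -1.80 beside -0.38 for all genes.

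The order of the knockdown-labelled fractions decides the sign of these efficiency differences. With the fractions exchanged, as the line at the foot of the table gives them, 0 of 20 cytosolic enzymes were at least 2-fold lower in efficiency and 9 were higher, with a median of 0.48, where 6.29% of all genes were lower and 27.8% higher. The low GC messages were then low in input, where 14 of 20 cytosolic enzymes and 31.8% of all genes were at least 2-fold lower, and rho with GC content was 0.77 for input and 0.04 for polyribosome RNA. On polyribosomes, 7 of 20 cytosolic enzymes were lower and 1, TARS, was higher, with a median of -0.68, where 14% of all genes were lower. CARS, WARS, EPRS, GARS and AARS were below control in both knockdown-labelled libraries, at log2 differences of -0.88 or further from 0 in the input-labelled one.

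Other genes of tRNA charging and translation were described from lists of related genes, whose efficiency counts stand beside 30.1% lower and 12% higher among all genes. Of the genes of tRNA maturation and export, 5 of 14 were at least 2-fold lower in efficiency and 0 higher, with a median of -0.09, a share near that of all genes. XPOT, which carries tRNA out of the nucleus, was at 2.71 FPKM in knockdown-labelled and 57.8 FPKM in control polyribosome RNA, and SSB, which binds new tRNA ends, at 1.46 FPKM in knockdown-labelled and 19.2 FPKM in control polyribosome RNA. TSEN54, of the tRNA splicing endonuclease, was at 75.3 FPKM in knockdown-labelled and 26.2 FPKM in control polyribosome RNA.

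Some charging steps run by other routes. Mitochondrial glutaminyl-tRNA is made by amidating glutamate attached by EARS2, and MTFMT formylates the initiator methionine. Of the 6 measured genes of trans-editing and mischarging 1 was at least 2-fold lower in efficiency, QRSL1 of the amidating complex at -1.32, and the median was -0.63. After the trend on GC content and length was taken out, 0 of 6 were lower, where 17.9% of all genes were. QRSL1 was then at 0.18 and the median at 0.07. EARS2 was at 13.1 FPKM in knockdown-labelled and 12.2 FPKM in control polyribosome RNA, MTFMT at 6.90 and 10.3 FPKM and GATC, another amidating subunit, at 16.3 and 14.1 FPKM.

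Elongation factors receive the charged tRNA. Of 7 cytosolic elongation factor genes 0 were called in efficiency, with a median of 0.26. Their median GC content was 56.97%, a band where 3.50% of all genes were lower. With the composition trend taken out 2 of 7 were lower, EIF5A at -1.10 and EEF1A2 at -1.03. EEF1A2 passed the filter through the knockdown-labelled libraries alone, as control cells had just 0.1 FPKM (input) and 0.21 FPKM (polyribosome). The added 1 FPKM holds its control efficiency near 0, so its call cannot be read as a difference in efficiency. EEF1A1, which delivers charged tRNA to the ribosome, was at 1020 FPKM in knockdown-labelled and 2838 FPKM in control polyribosome RNA. Its mitochondrial counterpart TUFM was at 301 FPKM in knockdown-labelled and 374 FPKM in control polyribosome RNA. Of 10 mitochondrial translation factors 6 were at least 2-fold lower in efficiency, with a median of -1.16. The lowest were the initiation factor MTIF3 at -1.85 and LRPPRC, which stabilizes mitochondrial mRNA, at -1.79. The median GC content of the 10 was 43.5%, a band where 71.9% of all genes were lower. With the composition trend taken out 1 of 10 was lower, with a median of -0.56. Of 18 genes of amino acid supply under ATF4, 4 were lower in efficiency and 3 higher. PSAT1 of serine synthesis was at -1.96 and the amino acid transporter SLC38A2 at -2.48, while ATF4 was at 1.63 and DDIT3 at 1.60. After the composition trend was taken out, 0 of 18 were lower and 3 higher, where 17.9% of all genes were lower and 5.51% higher.

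Some values are uncertain because genes overlap. In GENCODE 29, exons of 10 of the 39 genes overlap exons of another protein-coding gene on the opposite strand, by 68 to 532 bases. They are HARS and HARS2 with each other, MARS with DDIT3, WARS, YARS, AARS2, EARS2, SARS2, AIMP1 and AIMP2. On the same strand, which a strand setting cannot resolve, SARS2 shares 1492 bases with the annotated gene AC011455.2 and HARS2 shares 152 bases with ZMAT2. The kit marks strand, but whether the counting used it is not given in the sources used here.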

How the data were processed

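One table of FPKM for 17064 rows in 4 libraries was used, 1 library per group. Per the labels' protocols, poly(A) RNA was made into stranded libraries, and TopHat and hg19 (GRCh37) are named in the submitters' processing notes. For the counting tool, its strand setting and the annotation, no name is given in the sources used here. FPKM values are as the authors deposited them. The authors' deposited efficiency ratio equals polyribosome FPKM + 5 over input FPKM + 5, with a largest gap of 5e-10.

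Differences were computed as log2(FPKM + 1), and a call is at least 2-fold among genes averaging 5 FPKM or more. 26 rows whose gene name is a number were kept as rows. No test fits 1 library per group. Depth is unknown, so no counting interval is given. Transcript GC content and length came from GENCODE 29, with values for 7338 of 7379 genes, and a quadratic trend on both was taken out across those genes. The steps were tested on simulated data. Some items on these lists are not reported here. Members and lists were chosen with earlier results of these data known. All members are named, with NSUN6 and, of each related list, up to 2 genes with the highest and 2 with the lowest efficiency difference. ATF4, METTL1 and marker genes follow the same rule or were named for the library check. EEF1A2 lies outside the rule and was named for its call with the composition trend taken out. Alternatives were the pseudocount, the filter, scaling, the exchanged fractions and the composition trend. Python 3.11.15, pandas 2.3.3, numpy 2.4.6, scipy 1.17.1 and matplotlib 3.10.9 were used.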

Additional observations from a re-analysis of the deposited data

Results flagged for a closer look

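For 12 genes, polyribosome RNA stood above input in control cells and at least 2-fold below input in knockdown-labelled cells. With 1 library per fraction this difference was not tested. Of all genes, 4010 of 7379 stood above input in control cells, and 28.8% were at least 2-fold below input in knockdown-labelled cells. The share of all genes that met both conditions was not counted. Transcript GC content of the 12 genes lay between 36.3%, for AIMP1, and 48.6%, for GARS. As log2 differences in efficiency, knockdown-labelled over control, the cytosolic enzymes were TARS at -4.31, NARS at -3.41, RARS at -3.38, DARS at -3.18, FARSB at -2.74, GARS at -2.73, LARS at -2.64 and KARS at -1.52. The mitochondrial enzymes were WARS2 at -1.84 and NARS2 at -1.34. The scaffold genes were AIMP1 at -2.94 and EEF1E1 at -2.72.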

How the results depend on the processing

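Each count of called members was recomputed under 9 alternatives, and 91 of 108 such values stayed within 1.5 times the count reported. With the knockdown-labelled fractions exchanged, cytosolic calls were 14 lower and 0 higher in input, 7 lower and 1 higher in polyribosome RNA and 0 lower and 9 higher in efficiency. Mitochondrial calls were 4 lower in input and 0 lower and 5 higher in efficiency. Of the member values called at 2-fold, 20 turned sign, all under this exchange. They were TARS at -2.43 in input, TARS at 1.33 and IARS at 0.77 in polyribosome RNA, and in efficiency IARS at 3.71, TARS at 3.76, NARS at 3.36, DARS at 2.94, IARS2 at 2.92, EPRS at 2.62, EEF1E1 at 2.51, AIMP1 at 2.43, RARS at 2.31, FARSB at 2.28, LARS at 2.28, GARS at 2.22, RARS2 at 1.56, WARS2 at 1.46, NARS2 at 1.14, KARS at 0.65 and YARS2 at 0.38, and the median turned to 0.48 for cytosolic enzymes and 2.43 for the scaffold. Member values under 2-fold turned sign 22 times under the exchange, 14 times with GC content and length removed (VARS to -0.89 in efficiency, for example), 10 times with equal FPKM sums, 4 times with centring and 0 times under the other 5 alternatives. With GC content and length removed, mitochondrial calls were 1 higher in polyribosome RNA and 1 lower in efficiency. With 5 FPKM added in place of 1, they were 1 lower and 1 higher in input, 0 higher in polyribosome RNA and 1 lower in efficiency. With a control mean of at least 5 FPKM, they were 0 higher in input and 0 higher in polyribosome RNA, since MARS2 and PARS2 then leave the counts. The cause of the other shifts was not tested. Equal FPKM sums placed the median of all genes at 0.11 in input, -0.43 in polyribosome RNA and -0.37 in efficiency, against 0.01, -0.28 and -0.12 as reported. Over all genes the polyribosome calls were 2426 lower and 1230 higher, and 1989 lower and 1682 higher when centred on the median. No paired analysis was possible because each group held 1 library. Genes near 1 FPKM, such as EPRS on knockdown-labelled polyribosomes, rest on few reads of unknown number.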
